A study of Mus musculus with 6 samples.

Results

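The genes described here are 10 components of insulin, FoxO and mTOR signalling: Irs1, Irs2, Ddit4, Sesn2, Eif4ebp1, Eif4ebp2, Foxo1, Foxo3, Mtor and Rptor. They were named as a list, and every probe set annotated to 1 of them alone was taken, which gave 26 of the 45032 probe sets used. A further probe set that carries the names of Foxo3 and a second gene was left out. The list was drawn up with differences between Rb-null and control arrays already known, so those differences are given below as a description, with no test of the 10 genes. Expression was measured on Affymetrix mouse arrays in marrow cells selected by surface staining for Ter-119, which marks the red cell lineage, and CD71, the receptor for transferrin. There were 3 arrays from Rb-null mice, which were EpoR-GFPcre/+ and Rb fl/fl, and 3 from control mice, which were EpoR-GFPcre/+ and Rb fl/+. Both groups thus carried GFP and Cre at 1 allele of the erythropoietin receptor locus, and the controls also carried 1 floxed Rb allele. The sources used here state neither the age of the mice nor whether each array came from its own animal, so the spread between arrays may be technical.

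Insulin and related growth factors act through the adaptor proteins Irs1 and Irs2, which pass the signal from the receptor to PI3 kinase and Akt. Akt keeps the transcription factors Foxo1 and Foxo3 out of the nucleus and activates mTOR complex 1, in which Mtor is the kinase and Rptor the subunit that recruits substrates. Ddit4 and Sesn2 restrain that complex in stressed or starved cells, and Eif4ebp1 and Eif4ebp2 hold back cap-dependent translation until mTOR phosphorylates them. In erythroid precursors Foxo3 is known for its role in antioxidant defence and in maturation. The arrays measured RNA, not the phosphorylation by which most of these proteins are controlled.

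The promoters of 4 of the genes are shown because Irs2, Ddit4 and Sesn2 each had a probe set that was higher on all Rb-null arrays, while Irs1 is the sister adaptor of Irs2 and had overlapping groups. Each line holds the 250 bases before the RefSeq transcription start on build GRCm38.p6, read 5′ to 3′ on the gene's minus strand. Capitals mark ACGTG on either strand, 1 form of the core of the hypoxia response element, and no other form was searched.
Irs2, chr8:11008930-11009179: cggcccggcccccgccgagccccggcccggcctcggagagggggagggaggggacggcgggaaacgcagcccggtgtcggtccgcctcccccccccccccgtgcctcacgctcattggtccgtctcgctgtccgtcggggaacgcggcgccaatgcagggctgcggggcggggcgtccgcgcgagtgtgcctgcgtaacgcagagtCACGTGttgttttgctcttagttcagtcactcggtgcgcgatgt
Ddit4, chr10:59951771-59952020: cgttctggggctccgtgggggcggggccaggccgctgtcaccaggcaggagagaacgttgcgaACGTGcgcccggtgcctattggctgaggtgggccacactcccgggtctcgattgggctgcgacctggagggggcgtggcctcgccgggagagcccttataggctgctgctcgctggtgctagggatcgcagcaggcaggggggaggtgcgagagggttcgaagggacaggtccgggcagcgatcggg
Sesn2, chr4:132510457-132510706: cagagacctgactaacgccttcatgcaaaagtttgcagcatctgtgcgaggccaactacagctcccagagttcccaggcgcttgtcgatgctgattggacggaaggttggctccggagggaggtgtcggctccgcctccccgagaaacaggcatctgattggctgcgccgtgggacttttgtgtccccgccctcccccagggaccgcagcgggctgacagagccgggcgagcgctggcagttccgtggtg
Irs1, chr1:82291440-82291689: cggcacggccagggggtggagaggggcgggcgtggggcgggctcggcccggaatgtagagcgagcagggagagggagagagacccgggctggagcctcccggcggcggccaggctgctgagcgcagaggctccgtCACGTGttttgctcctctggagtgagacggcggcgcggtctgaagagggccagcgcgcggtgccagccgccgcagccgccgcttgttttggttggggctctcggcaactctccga
The RefSeq table held a promoter for 9 of the 10 genes, with Eif4ebp1 not matched. ACGTG lay in the windows of Irs1, Irs2, Ddit4, Eif4ebp2 and Rptor, that is 5 of 9, and in 16.6% of the 32851 promoters of this length in the table. The motif holds a CpG, and 8 of the 9 windows were richer in G and C (54.4% to 76.4%, with Rptor at 37.6%) than the median promoter of the table (52.4%), so these shares are not matched for base composition. In Irs2 and Irs1 it formed the palindrome CACGTG, which is read on both strands, 44 and 115 bases before the start. The windows were also searched on both strands for GTAAACA, a FoxO site, for TGATGNAA, the composite site of ATF4 and C/EBP, and for TTTNGCGC, an E2F site. None of these 3 was in any of the 9 windows, and they were in 3.17%, 3.45% and 1.13% of all promoters in the table. These are matches of letters and show no binding.

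On the arrays several markers of the sorted lineage were bright, but so were granulocyte markers. S100a8 read 9111 to 12419 on the Rb-null arrays and 10240 to 12488 on the control arrays. Brightness of a marker thus does not show how pure the sort was. Tfrc, which encodes CD71, read 7080 to 8506 on the Rb-null arrays and 6086 to 7960 on the control arrays, while the probe set of Hba-a1 was dim, with a highest reading of 27.0. Rb1, the floxed gene, read 4045, 3670 and 2897 on Rb-null arrays 1, 2 and 3 and 2760, 2152 and 1379 on the control arrays. The sources used here do not place its probes inside or outside the floxed region, so its signal does not check the labels. Epor, the locus of the Cre, read 248, 2228 and 558 on the Rb-null arrays and 2221, 266 and 609 on the control arrays, with 1 high array in each group. Both arrays numbered 3 lay far from the other 4 in a principal component analysis (51.3% of the variance on that axis). On them the control probe sets for 18S rRNA had a mean of 542 (Rb-null) and 1231 (control), and on the other 4 arrays of 32.6 to 66.2.

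Of the 10 genes, Irs2 and Ddit4 were higher on every Rb-null array than on any control array. Eif4ebp1 was so on 2 of its 3 probe sets and Sesn2 on 1 of 2. Irs1, Eif4ebp2, Foxo1, Foxo3, Mtor and Rptor had overlapping groups on all their probe sets. Fold changes are Rb-null over control, taken as log2(intensity + 16) after quantile normalization, and a probe set passed the filter on low values when its mean exceeded the 40th percentile, an intensity of about 18.9. All 10 genes had a probe set past the filter, 21 of 26 in all. Of these 21, 11 had a positive fold change, and 48.4% of all probe sets past the filter did. The 5 probe sets with groups that did not overlap were all higher in Rb-null cells, and 5.73% of the 27019 probe sets past the filter were so. Because the list was chosen on this contrast, nothing can be read from either comparison. The other 16 had log2 fold changes between -0.54 and 0.49. In sorted cells, a change in the share of cells that carry an RNA and a change of RNA per cell cannot be told apart.

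**Figure D1:**
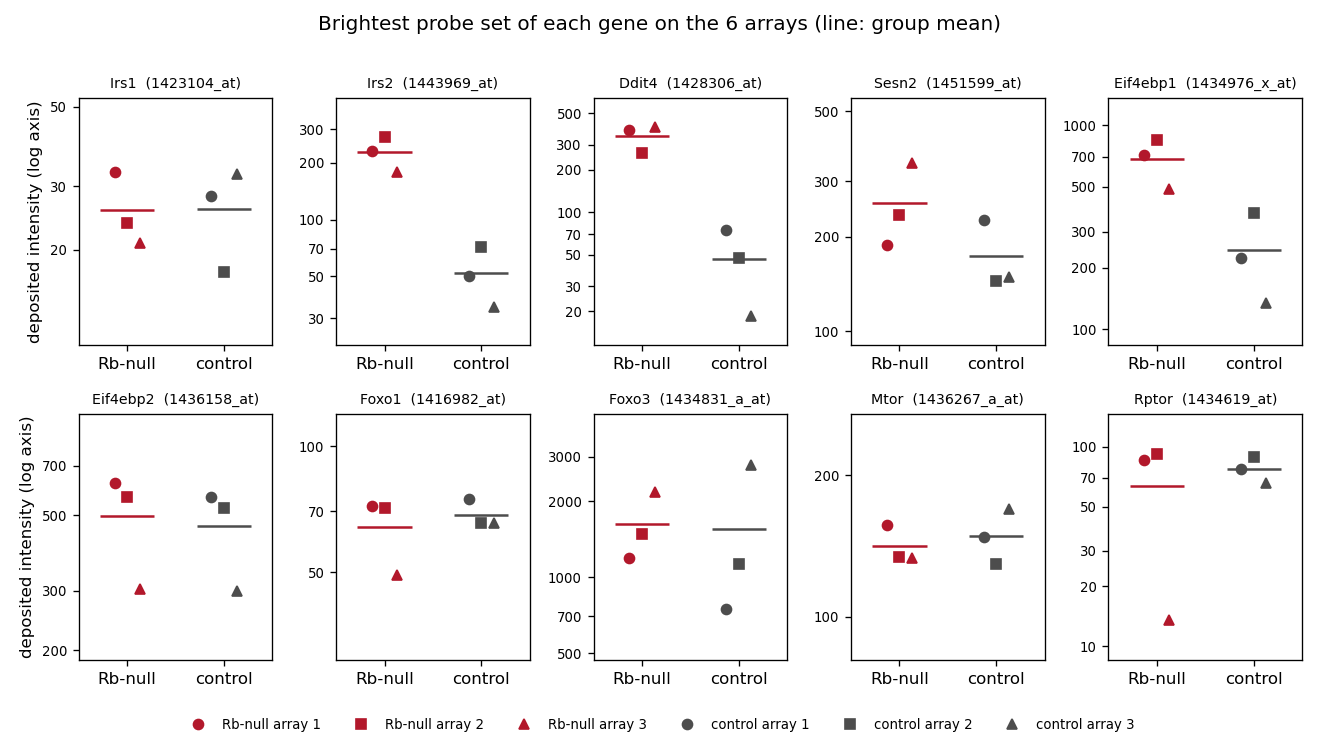
Deposited intensity, on a log axis whose range differs between panels, of the probe set with the highest mean for each of the 10 genes. Symbols are the 3 Rb-null arrays (left, red) and the 3 control arrays (right, grey), with the shape giving the replicate number and the line the group mean. The groups are apart for Irs2, Ddit4 and Eif4ebp1 and overlap for the other 7 genes.

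Among the adaptors, Irs2 read 231, 274 and 179 on Rb-null arrays 1, 2 and 3, against 50.4, 71.3 and 34.6 on control arrays 1, 2 and 3. Every Rb-null array was thus more than double the brightest control array. The means were 228 ± 47.95 in Rb-null cells and 52.1 ± 18.4 in control cells (SD, n = 3 each), a log2 fold change of 1.86 (SE 0.27). The difference was much alike within the replicate numbers, at 1.94, 1.64 and 1.99 for numbers 1, 2 and 3. Irs1, the sister adaptor, was dim, at 33.0, 23.7 and 20.9 on the Rb-null arrays and 28.2, 17.3 and 32.5 on the control arrays. Its groups lay on top of each other, with a log2 fold change of -0.00 (SE 0.29). Each adaptor is read by a single probe set, so neither value has a second reading on the array.

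Ddit4, also known as REDD1, holds back mTOR complex 1 through the TSC proteins and is induced by hypoxia, by p53 and by ATF4. Its intensity was 377, 261 and 398 on the Rb-null arrays and 75.4, 47.6 and 18.5 on the control arrays. The lowest Rb-null array was more than 3 times the highest control array. The means were 346 ± 73.5 in Rb-null cells and 47.2 ± 28.5 in control cells (SD, n = 3 each), a log2 fold change of 2.60 (SE 0.38), which is 6.07-fold. The difference was 3.66 within number 3, where the control array was near the filter value, and 2.14 and 2.02 within numbers 1 and 2. The size depends on the offset, since the log2 fold change was 3.01 with an offset of 1 and 1.91 with an offset of 64.

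Sesn2, a leucine sensor that restrains mTOR complex 1 through the GATOR complexes, is read by 2 probe sets that did not give the same picture. The first, 1451599_at, read 188, 234 and 344 on the Rb-null arrays and 225, 145 and 149 on the control arrays. Rb-null array 1 lay below control array 1 here, so the groups overlapped, with a log2 fold change of 0.49 (SE 0.36). On the second, 1425139_at, the Rb-null arrays read 200, 149 and 109 and the control arrays 83.6, 72.9 and 58.8. The groups were apart, with a log2 fold change of 0.92 (SE 0.27) and differences of 1.15, 0.84 and 0.77 within numbers 1, 2 and 3. The 2 probe sets order the Rb-null arrays in opposite ways, number 3 being the highest on the first and the lowest on the second.

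Of the inhibitors of cap-dependent translation, Eif4ebp1 was higher in Rb-null cells and Eif4ebp2 was not. Eif4ebp1 probe set 1434976_x_at read 715, 846 and 485 on the Rb-null arrays, against 224, 373 and 134 on the control arrays. The means were 682 ± 183 in Rb-null cells and 244 ± 121 in control cells (SD, n = 3 each), a log2 fold change of 1.49 (SE 0.32). The suffix x marks a probe set that Affymetrix considered open to cross-hybridization. Probe set 1417562_at, without that mark, read 242, 465 and 376 on the Rb-null arrays and 50.1, 219 and 76.0 on the control arrays, a log2 fold change of 1.71 (SE 0.47). On both, number 2 had the highest deposited intensity of its group and the smallest difference after normalization, at 1.14 and 0.99. The last probe set, 1417563_at, was dim in both groups, with 24.1 ± 7.28 in Rb-null cells and 22.7 ± 13.3 in control cells (SD, n = 3 each), and a log2 fold change of 0.11 (SE 0.30).

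Eif4ebp2 is read by 5 probe sets, of which 4 passed the filter. The brightest, 1436158_at, read 623, 565 and 303 on the Rb-null arrays and 567, 526 and 299 on the control arrays. Arrays of the same number nearly coincided, and the log2 fold change was 0.04 (SE 0.31). On the other 3 past the filter the log2 fold change was -0.49 (SE 0.48), -0.11 (SE 0.85) and -0.07 (SE 0.48). The widest SE belongs to a probe set whose level differed between replicate numbers far more than between the groups, as described below.

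The FoxO factors showed no separation of the groups on any probe set. Foxo3 has 3 probe sets past the filter, whose log2 fold change was 0.22 (SE 0.50), 0.03 (SE 0.38) or 0.29 (SE 0.42). Its probe set 1434831_a_at read 1191, 1489 and 2188 on the Rb-null arrays and 748, 1133 and 2789 on the control arrays. Rb-null cells were higher within numbers 1 and 2, by 0.56 and 0.35 on the log2 scale, and lower within number 3, at -0.26. Foxo1 was read at 71.9, 71.1 and 49.3 on the Rb-null arrays and at 74.9, 65.5 and 65.8 on the control arrays by probe set 1416982_at, a log2 fold change of -0.09 (SE 0.25). A second Foxo1 probe set past the filter had -0.01 (SE 0.48), and 2 more lay below the filter.

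Within mTOR complex 1, the groups overlapped on every probe set of the kinase and its partner. Mtor probe set 1436267_a_at read 157, 134 and 133 on the Rb-null arrays and 147, 129 and 169 on the control arrays, a log2 fold change of -0.07 (SE 0.28). A second, 1417592_at, read 75.7, 76.4 and 20.5 on the Rb-null arrays and 110, 117 and 40.03 on the control arrays. Its log2 fold change was -0.54 (SE 0.42). It was the only one of the 21 with a lower value in Rb-null cells within each number (-0.42, -0.52 and -0.68), although the groups overlapped, and 22.0% of all probe sets past the filter were lower in each pair. Rptor probe set 1434619_at read 85.4, 91.5 and 13.6 on the Rb-null arrays and 77.1, 88.5 and 65.4 on the control arrays. Its log2 fold change of -0.44 (SE 0.45) rested on Rb-null array 3, and without that array it was 0.10. The other Rptor probe set past the filter had -0.13 (SE 0.34).

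**Figure D2:**
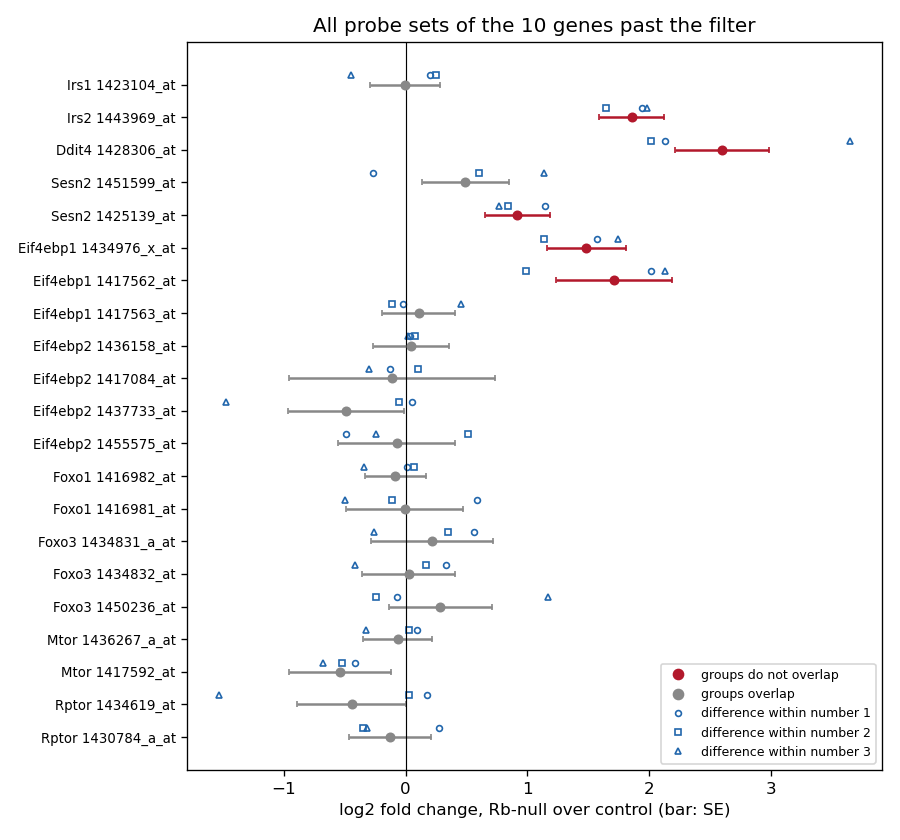
Log2 fold change, Rb-null over control, of the 21 probe sets past the filter, with bars giving the SE of the fit and open symbols the difference within each replicate number. Red points are the 5 probe sets of Irs2, Ddit4, Sesn2 and Eif4ebp1 whose groups did not overlap, and the remaining 16 lie between -0.54 and 0.49.

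Most markers of other marrow cells had lower mean values in Rb-null cells beside these differences. All 10 granulocyte markers on the array had a negative fold change (median -0.51), with a summed intensity of 26228 to 52519 on the Rb-null arrays and 35318 to 52145 on the control arrays. So did 9 of 10 macrophage markers, with sums of 1352 to 1744 on the Rb-null arrays and 1698 to 2870 on the control arrays, and no marker on any list read 0 on all arrays. Within number 2, however, the Rb-null array had the higher sum on both lists (52519 against 52145, and 1744 against 1698). Lower means were found for 6 of 8 B cell and 5 of 6 megakaryocyte markers. For T and NK cell markers it was 5 of 8, and for mast cell, basophil and eosinophil markers 3 of 5, both near an even split. The median log2 fold change over all genes past the filter was -0.04. Of 8 erythroid markers 3 had lower means, and their sum was 36699 to 43515 on the Rb-null arrays and 36370 to 38400 on the control arrays. The part of other marrow cells in the differences of Irs2, Ddit4, Sesn2 and Eif4ebp1 was not tested.

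The likeness of profiles was measured as the root mean square difference over the 6 arrays between log2 values centred on each gene's own mean. Among the 13232 genes past the filter, the profile nearest to Irs2 was Eif4ebp1, another of the 10, at 0.24. Next came Crip2, a LIM domain protein, at 0.26 and Ddit3, the CHOP transcription factor of the stress response, at 0.26. Nearest to Ddit4 were the deubiquitinase Otud1 at 0.36, Ddit3 at 0.37 and Trp53inp1, a p53 target, at 0.37. For Eif4ebp1 the nearest were H3f3a, a variant histone H3, Pknox1, a homeobox factor, and Sfr1, a recombination protein, at 0.15 to 0.16. Since the 3 genes were chosen for their difference between the groups, genes that share it are near them by that choice. The profiles of Irs2 and Ddit4 lay 0.60 apart, whereas those of Irs1 and Mtor lay 0.10 apart. After normalization Irs1 and Mtor were both lowest on control array 2 and highest on control array 3. The measure is not scaled by the size of a change, so genes that change little lie close (Irs1 and Foxo1 at 0.16).

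How the genes varied between replicate numbers is a question that the choice of the list did not use. Arrays of the same number deviated together, and the F test of limma for the number, with genotype in the fit and adjustment over all probe sets, called 5 of the 21 probe sets, or 23.8%. Over all probe sets past the filter it called 27.0%, so the genes as a list did not stand out from the array. That count, 7282 of 27019, fell to 2658 without Rb-null array 1, 1295 without Rb-null array 2, 2474 without control array 1 and 1514 without control array 2. It rose to 12996 without Rb-null array 3 and 12034 without control array 3. An offset of 1 gave 3731. Calls gained or lost below in these alternatives are to be read beside these counts. The sources used here do not state the meaning of the numbers.

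Eif4ebp2 probe set 1417084_at differed most between numbers. It read 550, 258 and 45.0 on Rb-null arrays 1, 2 and 3 and 557, 236 and 58.6 on the control arrays. Within each number the groups nearly coincided, while both groups were highest on number 1 and lowest on number 3. The mean log2 values of the numbers spanned 2.88, a span reached by 0.229% of probe sets (median 0.66), with an adjusted p of 0.0106 by the limma F test, and the call held under all 13 alternatives run (adjusted p 0.0012 to 0.0414). The probe sets of the gene did not move alike. Probe set 1455575_at was brightest on number 3, with 133, 198 and 286 on the Rb-null arrays and 192, 131 and 345 on the control arrays (limma F test, adjusted p = 0.0376). That call was lost without any 1 of Rb-null arrays 1 and 2 and control arrays 1 and 2, with adjusted p of 0.0533 to 0.0784. In those fits the whole array had fewer calls as well, 1295 to 2658 of 27019. The call of 1455575_at was also lost with the deposited scaling (0.0727), with an offset of 1 (0.0791) and without both arrays numbered 3 (0.866).

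Foxo3 probe set 1434831_a_at was brightest on number 3 in both groups, with means of 9.90, 10.21 and 11.34 on the log2 scale for numbers 1, 2 and 3 (limma F test, adjusted p = 0.0240). The means of 1434832_at were 9.47, 10.34 and 10.31, and those of 1450236_at 4.95, 5.81 and 5.77, so neither peaked on number 3. Neither was called (limma F test, adjusted p 0.0614 and 0.178), though they were in 5 of 13 and 3 of 12 alternatives. Mtor probe set 1417592_at was lowest on number 3, with means of 6.68, 6.68 and 5.64 (limma F test, adjusted p = 0.0213). The gene's brighter probe set, 1436267_a_at, was highest on number 3, with means of 7.33, 7.08 and 7.58. It was not called (limma F test, adjusted p = 0.212). The calls of 1434831_a_at and 1417592_at were lost without both arrays numbered 3 (adjusted p 0.274 for Foxo3 and 0.996 for Mtor). Leaving out Rb-null array 2, control array 1 or control array 2 also ended each call (adjusted p 0.0665 to 0.0695 for Foxo3 and 0.0629 to 0.0873 for Mtor), as did Rb-null array 1 for Mtor (0.0687). The dim Foxo1 probe set 1416981_at had an adjusted p of 0.0424 and lost its call without Rb-null array 2, control array 1, 2 or 3 (0.0568 to 0.129), with the deposited scaling (0.0542) and with an offset of 1 (0.0768). An offset of 1 ended the Foxo3 call as well (0.0586). Irs2 and Ddit4 spanned 0.37 and 0.54 between numbers, below the median of all probe sets, and were not called (limma F test, adjusted p 0.324 and 0.550). Ddit4 was called without Rb-null array 3 or control array 3 (limma F test, adjusted p 0.0099 and 0.0200). Those fits called 12996 and 12034 of all 27019 probe sets. Eif4ebp1 probe set 1417562_at spanned 1.29 and missed the call (limma F test, adjusted p = 0.0593), but was called in 7 of 13 alternatives. Its probe set 1434976_x_at spanned 0.70 (limma F test, adjusted p = 0.120) and was called in 2 of 14. Ribosomal RNA signal differed with number 3, as given above, and so did the sum of mast cell, basophil and eosinophil markers. It was 111 on Rb-null array 3 and 161 on control array 3, against 669 to 1383 on the other 4 arrays. Prg2 made up most of it, at 58.0 and 63.0 on these 2 arrays and 543 to 1114 on the other 4. Epx, Cpa3 and Ms4a2 were also lowest on number 3 in each group. Mcpt8 was not, at 44.0 on control array 3 and 16.6 on control array 1. The part of ribosomal RNA and of these markers in the differences between numbers was not tested.

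**Figure D3:**
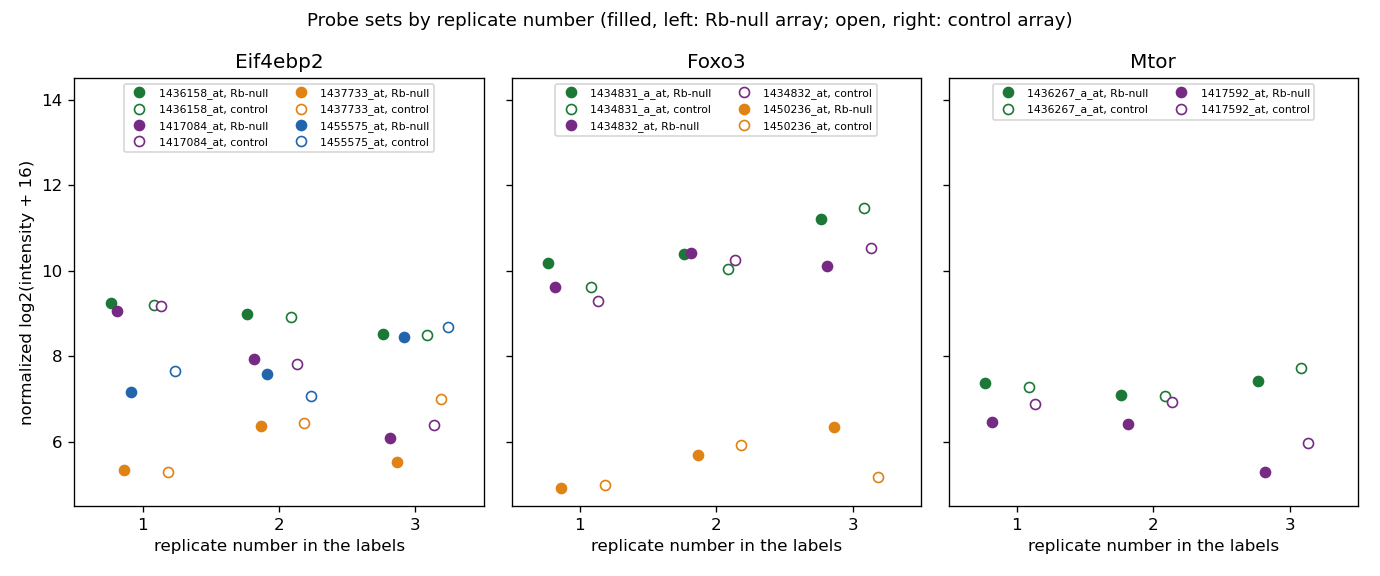
Normalized log2(intensity + 16) of the probe sets of Eif4ebp2, Foxo3 and Mtor past the filter, by the replicate number in the labels, with Rb-null arrays filled and on the left and control arrays open and on the right. Eif4ebp2 probe set 1417084_at spans 2.88 between numbers with the groups nearly together within each, and probe set 1455575_at of the same gene is highest on number 3.

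The wider pathway was described with 4 lists written from textbook knowledge, 132 genes besides the 10, of which 115 had a probe set past the filter. By limma with adjustment over all probe sets, 0 of the 115 passed at 0.05 (lowest adjusted p = 0.585), as did 0.00% of the 27019 probe sets past the filter. At an unadjusted p under 0.05 stood 5 higher and 2 lower genes, where the shares over all genes were 2.43% and 1.43%. With the replicate block it was again 0, and a fit that added a variance trend and robust moderation to the block called 10 of the 115 (8 higher and 2 lower), against 3.53% of all genes. With the block alone 29 of the 115 had an unadjusted p under 0.05 (25.2%), against 16.3% of all genes. The groups did not overlap for 10 genes higher in Rb-null cells (8.70%, against 5.13% of all genes) and for 6 lower ones (5.22%, against 4.78%). The median log2 fold change over the 115 genes was 0.03, and over all genes it was -0.04. The lists were chosen with earlier results of these data known. Nothing can therefore be read from their shares set beside those of all genes.

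In the PI3 kinase and Akt arm, 28 genes passed the filter and had a median of 0.05. Trib3, a pseudokinase that binds Akt and a target of ATF4, read 219, 322 and 252 on the Rb-null arrays and 31.3, 105 and 94.0 on the control arrays. The groups were apart, with a log2 fold change of 1.69 (SE 0.42) that missed the limma test (adjusted p = 0.644). It passed in the fit with the block, variance trend and robust moderation (limma adjusted p = 0.0236), and did not with the block alone (limma adjusted p = 0.0999). The other genes with the smallest p were Tsc1, a brake on mTOR complex 1, at 0.60 (SE 0.29), the kinase Gsk3b at 0.64 (SE 0.33) and the PI3 kinase subunit Pik3cb at 0.96 (SE 0.59).

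FoxO relatives, partners and known targets numbered 28 past the filter, with a median of 0.09. Cat, catalase, a FoxO target in antioxidant defence, read 1735, 1400 and 629 on the Rb-null arrays and 3924, 2288 and 2840 on the control arrays. All 3 Rb-null arrays were below the lowest control array, a log2 fold change of -1.36 (SE 0.40; limma adjusted p = 0.771). The mitochondrial peroxiredoxin Prdx3 also had a negative value, -0.97 (SE 0.28; limma adjusted p = 0.765). Skp2, a ubiquitin ligase subunit that targets p27 and Foxo1, had 1.40 (SE 0.33; limma adjusted p = 0.585), and the deacetylase Sirt1, which acts on FoxO proteins, had 1.38 (SE 0.40; limma adjusted p = 0.765). In the fit with the block, trend and robust moderation all 4 passed, with limma adjusted p of 0.0195 for Sirt1, 0.0246 for Prdx3, 0.0293 for Cat and 0.0438 for Skp2. With the block alone they did not pass (limma adjusted p 0.0999 for Sirt1, 0.111 for Prdx3 and Cat, 0.125 for Skp2). Antioxidant genes of the list went both ways. Sod2, a superoxide dismutase, read 1090, 837 and 692 on the Rb-null arrays and 430, 630 and 297 on the control arrays. Its groups were apart, at 0.92 (SE 0.29, limma adjusted p = 0.873). With block, trend and robust moderation Sod2 passed as well (limma adjusted p = 0.0489).

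The mTOR complexes and their upstream regulators gave 36 genes past the filter, with a median of 0.03, and 0 at an unadjusted p under 0.05. With the replicate block 5 higher and 2 lower genes had such a p, as did 16.3% of all genes. Rheb, the small GTPase that activates mTOR complex 1, read 988, 1070 and 653 on the Rb-null arrays and 639, 731 and 371 on the control arrays. These groups overlapped on the deposited scale and were apart after normalization, with a log2 fold change of 0.60 (SE 0.29; limma adjusted p = 1.00, and 0.0468 in the fit with the block, trend and robust moderation). With the block alone Rheb did not pass (limma adjusted p = 0.167). Rragc, a GTPase that brings the complex to the lysosome, had 0.52 (SE 0.31), while Sec13, a GATOR subunit, had -0.62 (SE 0.30) and Lamtor2, a Ragulator subunit, -0.47 (SE 0.29). Among 23 genes downstream, with a median of -0.02, again 0 had an unadjusted p under 0.05. With the replicate block 4 higher and 2 lower ones did, beside the same 16.3% of all genes. The cap-binding protein Eif4e, on which both Eif4ebp proteins act, had 0.44 (SE 0.29) and its transporter Eif4enif1 0.75 (SE 0.35). Eif4enif1 passed only in the fit with the block, trend and robust moderation (limma adjusted p = 0.0327). The kinase Mknk2 had 0.40 (SE 0.26), and Rb1cc1, a partner of the autophagy kinase Ulk1, -0.64 (SE 0.33).

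**Figure D4:**
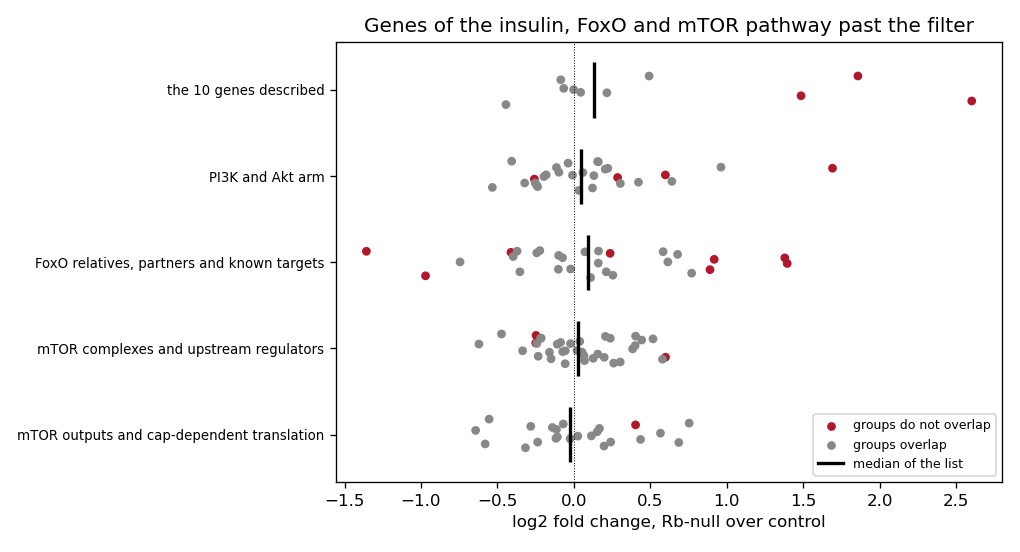
Log2 fold change, Rb-null over control, of the 10 genes (probe set with the highest mean) and of the genes of the 4 wider lists past the filter, each point a gene and the black line the list's median. Red marks genes whose groups did not overlap. The medians of the 4 lists lie between -0.02 and 0.09.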

How the data were processed

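RNA from sorted marrow cells was read on 6 single-colour arrays. The labels' protocols name Trizol with QIAGEN columns for the RNA and biotin as the label. Each deposited value is a linear intensity of 1 probe set, and how the authors summarized and scaled it is not stated in the sources used here. Of 45101 probe sets, 64 controls, 4 empty ones and 1 with a value above the 16-bit scanner range of 65535 were left out. Gene names came from GEO's platform annotation, with symbols updated through the gene ID. Of the 45032 probe sets used, 34941 carried 1 symbol, 932 several and 9159 none, and the probe set of highest mean stood for its gene.

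Intensities were transformed as log2(value + 16) and quantile normalized, since array medians differed by 0.264 on the log2 scale. Probe sets above the 40th percentile of the mean were fitted in R 4.3.3 with limma 3.58.1 (2-sided moderated test, Benjamini-Hochberg adjustment over the 27019 probe sets past the filter, threshold 0.05), and both the contrast and the F test were tested on simulated data with large shifts and a spread capped below that of many probe sets, which checks the code and not the power. With 3 arrays a group, the number of arrays limits the precision. Replicate numbers in the titles pair the arrays: deviations from the group means correlated at 0.636, 0.615 and 0.653 for arrays of the same number, and at most at 0.0370 for others. The 10 genes, the 4 pathway lists and the alternatives were chosen with earlier results of these data known. The named pathway genes are the 4 with the smallest p in each list. Sod2 was added to them because its values went the other way from Cat and Prdx3. The profiles named as alike are the 3 nearest to each of the 10 genes whose groups did not overlap. Alternatives covered scaling, offset, filter, probe sets per gene, the replicate block, array weights and arrays left out. Leaving out single arrays in the test of the replicate number was added after seeing the data. No column was left unused.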

Additional observations from a re-analysis of the deposited data

How the results depend on the processing

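The count of probe sets called between Rb-null and control was 0 of 27019 without the replicate block (lowest limma adjusted p = 0.265, with 1119 at unadjusted p under 0.05) and 0 with it (lowest adjusted p = 0.0999). With the replicate block, a variance trend and robust moderation, limma called 938 probe sets (605 higher and 333 lower) and 10 of the 115 pathway genes, of which 8 were higher, Trib3, Skp2, Sirt1 and Rheb among them, and 2 lower, Cat and Prdx3. The cause of this difference between fits was not tested. All other alternatives called 0 probe sets and 0 pathway genes. The number of the 10 genes with Rb-null values above all control values was 3 in all but 4 alternatives. It was 5 without both arrays numbered 3, where 15.6% of all genes were so against 5.13% with all arrays, and 3 to 4 with 1 array left out, where 7.59% to 10.3% of all genes were so. The size of the fold change depended most on the offset for Irs2 (log2 1.33 with 64 and 2.15 with 1) and Ddit4 (1.91 and 3.01). The 7282 probe sets called for the replicate number became 3731 with an offset of 1, 3618 without both arrays numbered 3, 3420 of 13232 with one probe set per gene, and 1295 to 12996 with 1 array left out (the lowest without Rb-null array 2 and the highest without Rb-null array 3). Of the 26 probe sets of the 10 genes, 5 lay below the filter and were not fitted.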
